A study of Mus musculus with 2 samples.

Results

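The Hox genes of the mouse are 39 homeobox genes in 4 clusters, Hoxa, Hoxb, Hoxc and Hoxd. They were taken by symbol from the deposited tables, which hold 22072 gene symbols, and all 39 had a row with the status OK in both libraries. RNA came from mouse embryonic tongue at embryonic day 12, on a mixed background, with 1 library of each genotype. Control embryos were heterozygous for a conditional allele of Osr1, an odd-skipped zinc finger factor, and otherwise wild type at the gene (Osr1f/+). Mutant embryos had that allele opposite a null one and also the Wnt1cre transgene (Osr1f/-; Wnt1cre). The control label names no Cre, so the libraries also differ in the presence of the transgene. Wnt1cre acts in the neural crest lineage, so muscle, blood vessel and epithelial cells of the mutant keep the conditional allele and carry the null allele beside it. Per the design text, tissue from 3 pairs of control and mutant samples was pooled for RNA extraction.

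Hox genes encode transcription factors that give cells a position along the body axis. Genes with low paralog numbers lie at the 3′ end of each cluster and are active furthest forward, and higher numbers are active further back. In the head, neural crest of the mandibular arch, which builds the front of the tongue, is known to lack Hox expression. The crest of the arches behind it expresses the genes of paralog groups 2 to 4 by arch, and the muscle precursors of the tongue come from somites at the back of the head. Hox proteins bind DNA together with the TALE homeodomain proteins Pbx and Meis, and retinoic acid is a known activator of the 3′ genes.

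With 1 library per genotype no test between genotypes could be made, and every ratio below compares 2 libraries. Levels are FPKM, fragments per kilobase of transcript scaled to the mapped fragments of the library, so they can be compared between genes. Each ratio is mutant FPKM over control FPKM. The interval after it is a 95% counting interval from estimated reads, which holds no variation between embryos. Osr1 itself had 56.8 FPKM in the control library against 18.4 FPKM in the mutant, giving a ratio of 0.325 (0.30 to 0.351). The value counts the whole transcript and not only the part lost by recombination. The depth was estimated at about 18900000 mapped reads for the control and 23200000 for the mutant library. A level of 3 reads, taken as the floor, came to between 0.0468 and 0.227 FPKM across the Hox genes in the control library, depending on transcript length. In the mutant library it came to between 0.0382 and 0.185 FPKM. In pooled tissue, fewer cells of a type and less RNA per cell cannot be told apart.

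The RefSeq promoters of 4 members are shown first, because the members they belong to stand at both ends of the pattern described below. Hoxa2 had the highest level, and Hoxa5, Hoxb4 and Hoxd4 are genes of paralog groups 4 and 5 with larger ratios between the libraries. Each run is 300 bases on the gene's own strand, 5′ to 3′, from 250 bases before to 50 bases after the start of the gene on GRCm38.p6. Capitals mark the motif AGGTCA or its reverse complement TGACCT in Hoxa5, Hoxb4 and Hoxd4, and in Hoxa2 they mark a match to TGATNNAT on the reverse strand.
Hoxa2 (chr6:52164782-52165081, minus strand): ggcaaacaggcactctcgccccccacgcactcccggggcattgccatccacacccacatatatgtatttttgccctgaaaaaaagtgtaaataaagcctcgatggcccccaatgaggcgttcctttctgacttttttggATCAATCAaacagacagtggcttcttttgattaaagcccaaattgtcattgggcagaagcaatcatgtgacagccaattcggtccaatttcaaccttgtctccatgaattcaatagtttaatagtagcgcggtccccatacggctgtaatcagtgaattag
Hoxa5 (chr6:52204538-52204837, minus strand): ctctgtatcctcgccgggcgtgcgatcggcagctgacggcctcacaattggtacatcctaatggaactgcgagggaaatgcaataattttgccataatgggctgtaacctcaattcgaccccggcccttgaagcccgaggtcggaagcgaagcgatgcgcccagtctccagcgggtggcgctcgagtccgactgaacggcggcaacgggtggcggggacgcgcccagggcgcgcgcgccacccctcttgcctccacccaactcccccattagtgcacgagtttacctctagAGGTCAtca
Hoxb4 (chr11:96318017-96318316, plus strand): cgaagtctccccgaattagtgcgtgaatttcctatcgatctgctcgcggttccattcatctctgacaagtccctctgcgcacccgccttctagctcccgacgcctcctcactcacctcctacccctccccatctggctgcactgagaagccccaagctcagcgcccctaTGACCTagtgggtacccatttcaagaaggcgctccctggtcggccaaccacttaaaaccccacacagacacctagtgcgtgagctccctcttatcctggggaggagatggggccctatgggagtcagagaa
Hoxd4 (chr2:74721728-74722027, plus strand): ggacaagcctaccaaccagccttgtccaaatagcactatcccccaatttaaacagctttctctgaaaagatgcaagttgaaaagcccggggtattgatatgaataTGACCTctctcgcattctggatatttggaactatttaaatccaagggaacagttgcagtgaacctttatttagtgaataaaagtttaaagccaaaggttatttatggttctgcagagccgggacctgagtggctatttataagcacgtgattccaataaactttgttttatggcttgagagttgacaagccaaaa

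Hox RNA of these tongues came from the 3′ ends of the clusters. At least 1 FPKM was reached by 6 members in the control library, which were Hoxa2, Hoxa3, Hoxb2, Hoxb3, Hoxb4 and Hoxd3. In the mutant library 9 members reached it, these 6 and also Hoxa4, Hoxa5 and Hoxd4. Summed over all 39 members, the level was 32.5 FPKM in the control library against 41.6 FPKM in the mutant. Paralog groups 2 and 3 held 85.0% of that sum in the control library, and 81.7% in the mutant. Groups 4 and 5 held 11.8% and 16.0%.

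Beyond paralog number 5 the clusters were close to silent at this depth. Of the 24 members numbered 6 to 13, none reached 1 FPKM, and 17 were listed at 0 in both libraries. The 24 together came to about 18 reads in the control library and 19 in the mutant. Hoxd8 was the only one of them with at least 3 reads in either library, with 0.392 FPKM in the control library against 0.437 FPKM in the mutant. That is about 11 and 14 reads, and the interval of its ratio ran from 0.438 to 2.53. The others, where not at 0, rested on 1 or 2 reads, such as Hoxd13 with 1 and 2 reads and Hoxc8 with 2 and 1. In the plot of FPKM by cluster and paralog number the filled points therefore end at number 5, apart from Hoxd8.

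**Figure D1:**
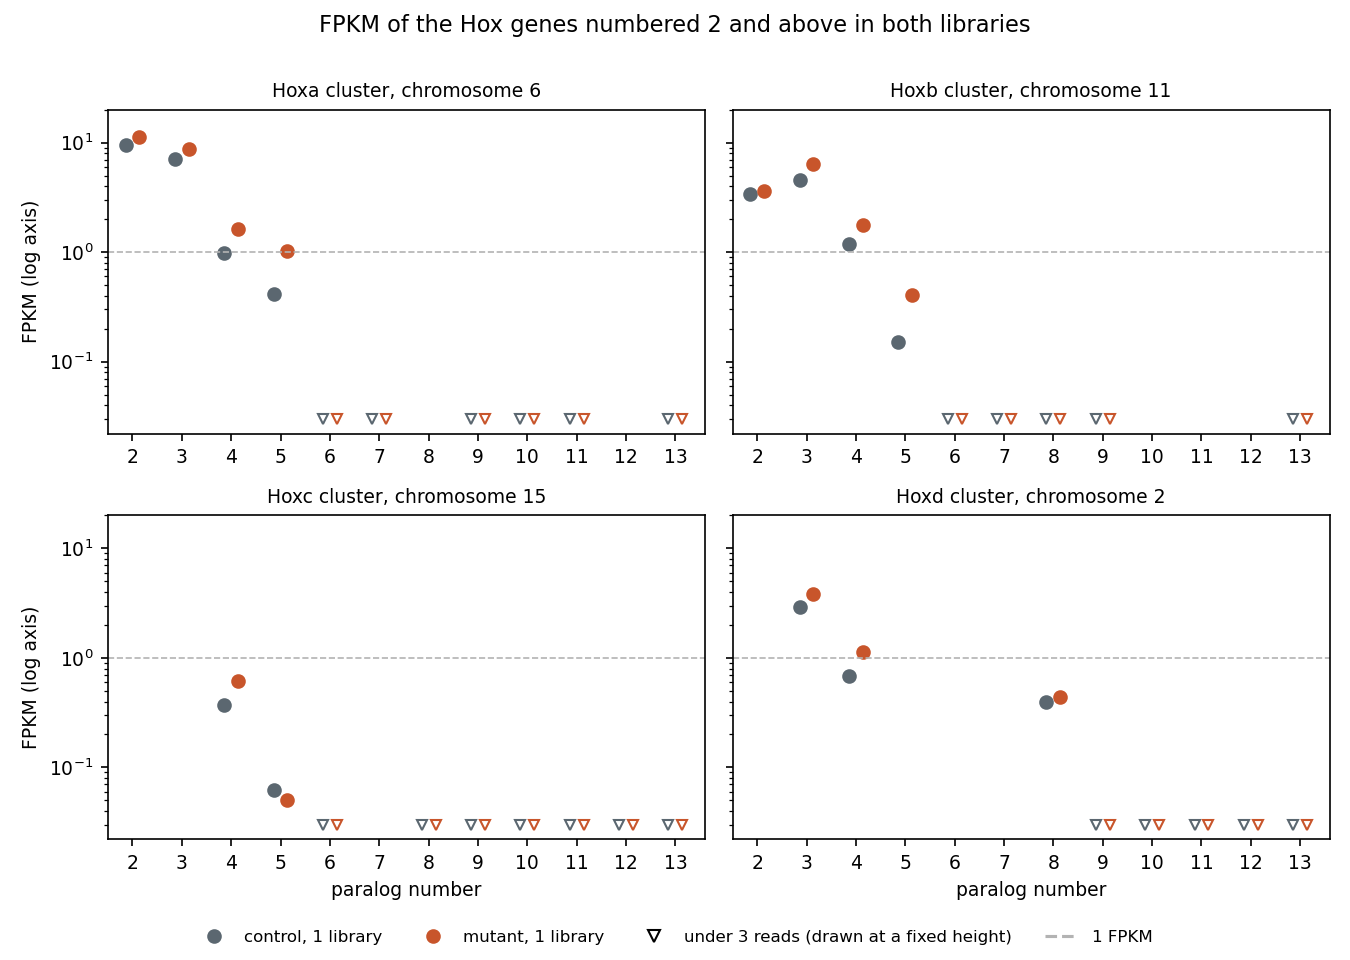
FPKM (log axis) of the Hox genes of paralog numbers 2 to 13, one panel per cluster, for the control (grey) and the mutant library (orange), 1 library each. Open triangles are values under 3 reads, drawn at a fixed height, and positions without a symbol have no gene. The levels peak at numbers 2 and 3, up to 11.4 FPKM for Hoxa2 in the mutant library, and the orange points lie above the grey ones at numbers 2 to 4 in each cluster that has the gene.

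All 9 measured members, those with at least 1 FPKM in either library, were higher in the mutant library. Of all 12383 measured genes, 51.2% had the higher level in the mutant, and so had 54.8% of the 6396 genes whose mean level lay within the range of the 9. The counting interval lay above 1 for 8 of the 9, against 10.7% of all measured genes and 10.4% of those in the range of levels. On the scale of FPKM plus 1, 5 of the 9 were at least 25% higher in the mutant library, against 3.23% of all measured genes and 4.94% of those in the range. Their median log2 ratio on that scale was 0.33, and over all measured genes it was 0.0035. Hoxa4, Hoxa5 and Hoxd4 reached 1 FPKM only in the mutant library and could, given that filter, only count as higher. A filter on the mean of both libraries, which does not favour a direction, left 7 members, all 7 of them higher and 6 with an interval above 1. Over all genes with such a mean, 51.1% were higher and 10.6% had an interval above 1. On FPKM plus 1, 3 of the 7 were at least 25% higher, against 2.94%.

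Paralog group 2 holds 2 genes in the mouse. Hoxa2, the gene that gives neural crest of the second arch its identity (52112510 to 52114830 of chromosome 6 on mm9), had 9.61 FPKM in the control library against 11.4 FPKM in the mutant. Its ratio was 1.18 (1.02 to 1.37), from about 306 and 443 reads. Among measured genes of the control library, 48.9% had a lower level than Hoxa2. Hoxb2, which acts with Hoxa2 in hindbrain and arches (chromosome 11, 96212946 to 96215328), had 3.42 and 3.63 FPKM. The ratio of Hoxb2, 1.06 (0.820 to 1.39), was the smallest of the 9, and its interval includes 1.

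Paralog group 3 genes pattern the third arch and the glands and cartilages that form from it. Hoxa3 (chromosome 6, 52119061 to 52163066) had 7.16 FPKM in the control library against 8.80 FPKM in the mutant, giving a ratio of 1.23 (1.07 to 1.42). Hoxd3 (chromosome 2, 74550050 to 74586328) had 2.94 against 3.86 FPKM, or a ratio of 1.31 (1.08 to 1.62). Hoxb3 (chromosome 11, 96184440 to 96209244) had 4.51 against 6.37 FPKM, or a ratio of 1.41 (1.23 to 1.65). All 3 genes of the group thus had more RNA in the mutant library, by amounts whose intervals overlap one another.

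Hoxb3 was the only measured member with more than 1 deposited transcript, and its models went in opposite directions. The long model, NM_001079869, starts 1488 bases past the end of Hoxb4 and runs to the same end as the short one. It had 1.41 FPKM in the control library against 4.44 FPKM in the mutant, giving a ratio of 3.14 (2.48 to 3.99). The short model, NM_010458 (96205083 to 96209244), had 3.10 FPKM in the control library against 1.93 FPKM in the mutant, giving a ratio of 0.623 (0.499 to 0.775). The long model thus held 31.3% of the gene's FPKM in the control library, but 69.6% in the mutant. Reads that fit both models were shared between them by estimation, so the sum is firmer than the split, and the intervals do not cover the error of that sharing.

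**Figure D2:**
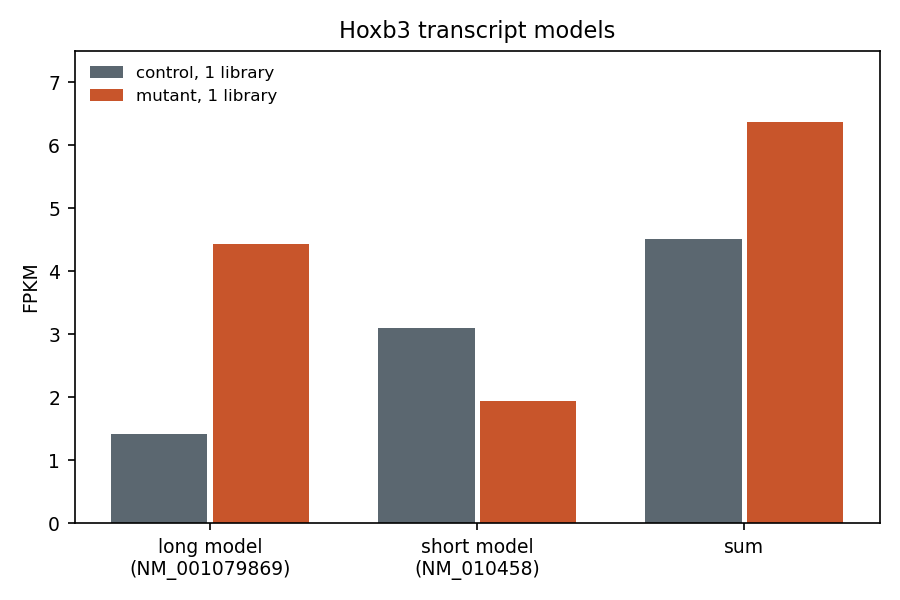
FPKM of the long and the short Hoxb3 transcript model and their sum in the control (grey) and the mutant library (orange), 1 library each, with no error bar. The long model is higher in the mutant library, with 4.44 against 1.41 FPKM, and the short model is lower, with 1.93 against 3.10 FPKM.

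Paralog group 4 genes are expressed further back, in the hindbrain, posterior arches and occipital somites. Hoxa4 (chromosome 6, 52139686 to 52141702) had 0.979 FPKM in the control library against 1.64 FPKM in the mutant, giving a ratio of 1.67 (1.06 to 2.76). Hoxb4 (chromosome 11, 96179581 to 96182952) had 1.18 against 1.79 FPKM, or a ratio of 1.51 (1.09 to 2.13). Hoxd4 (chromosome 2, 74560035 to 74567216) had 0.685 against 1.12 FPKM, or a ratio of 1.64 (1.08 to 2.60). For Hoxc4, the gene nearest the 3′ end of the Hoxc cluster, the values were 0.371 and 0.621 FPKM, below the minimum in both libraries. With about 14 and 29 reads, its ratio of 1.67 had bounds of 0.865 and 3.46. The 4 genes lie on 4 chromosomes, and their ratios ran only from 1.51 to 1.67.

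Paralog group 5 was at the edge of detection in the control library. Hoxa5, a regulator of cervical and thoracic pattern and of airway development (chromosome 6, 52151753 to 52154586), had 0.416 FPKM in the control library against 1.02 FPKM in the mutant. Its ratio of 2.46 (1.31 to 4.63), from about 15 and 44 reads, was the largest of the 9. Hoxb5 stayed below 1 FPKM, with 0.152 and 0.408 FPKM, about 5 and 18 reads, and an interval of the ratio from 1.05 to 10.1. Hoxc5 had 0.0618 and 0.0501 FPKM, about 3 reads in each library, so no difference was detectable at this depth. Of the 7 genes of groups 4 and 5, 6 were higher in the mutant library and 5 had an interval above 1. Of all 16124 genes with at least 3 reads in either library, as each of the 7 had, 51.3% were higher and 9.02% had an interval above 1.

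Hoxd1, of paralog group 1, whose genes act early in the hindbrain, had 0.162 and 0.0768 FPKM, about 6 and 3 reads. Hoxb1, the marker of the fourth rhombomere of the hindbrain, was at 0 in the control library and had a single read in the mutant. Of the 13 members below 1 FPKM with a value above 0, 6 were higher and 7 lower in the mutant library, and 7 of the 13 had under 3 reads in both.

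The summed ratio became larger with paralog number from group 2 to group 5. Group 2 had 13.03 FPKM in the control library against 15.0 FPKM in the mutant, giving a ratio of 1.15 (1.01 to 1.31). For group 3 the sums were 14.6 and 19.0 FPKM, a ratio of 1.30 (1.20 to 1.44). Group 4 had 3.22 against 5.17 FPKM, or a ratio of 1.61 (1.29 to 1.97), and group 5 had 0.630 against 1.48 FPKM, or a ratio of 2.35 (1.44 to 3.95). Intervals of neighbouring groups overlap. Groups 4 and 5 together had a ratio of 1.73 (1.40 to 2.07), and groups 2 and 3 together one of 1.23 (1.17 to 1.36). These pairs were chosen after the data were seen, so the lack of overlap of their intervals is not independent support for the order. The interval of a sum comes from the summed reads, in which longer transcripts weigh more than in the summed FPKM. It is therefore only an approximate interval for the printed ratio, here and for the clusters below. Since these intervals hold counting error only, whether other embryos show the same order was not tested. Groups 6 to 13 together, with a ratio of 0.909 (0.428 to 1.74), were too shallow to place.

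The order was present in more than one cluster. In Hoxa, genes 2 and 3 together had a ratio of 1.20 (1.09 to 1.34) and genes 4 and 5 together 1.91 (1.34 to 2.83). For Hoxb the same pair of values was 1.26 (1.17 to 1.51) and 1.65 (1.18 to 2.21). In Hoxd, which has no gene numbered 2 or 5, Hoxd3 had 1.31 and Hoxd4 1.64. The intervals of the lower and the higher numbers overlap in Hoxb and Hoxd. In Hoxa they fall just short of overlap. The upper bound there is 1.337 for genes 2 and 3, and the lower bound is 1.344 for genes 4 and 5. With approximate intervals this gap is too small to rely on. The whole clusters differed less from one another, with summed ratios of 1.26 (1.14 to 1.38) for Hoxa, 1.30 (1.21 to 1.53) for Hoxb and 1.31 (1.12 to 1.59) for Hoxd. Hoxc held 1.45% of the Hox FPKM of the control library, and its ratio of 1.46 had an interval that includes 1 (0.783 to 2.64).

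**Figure D3:**
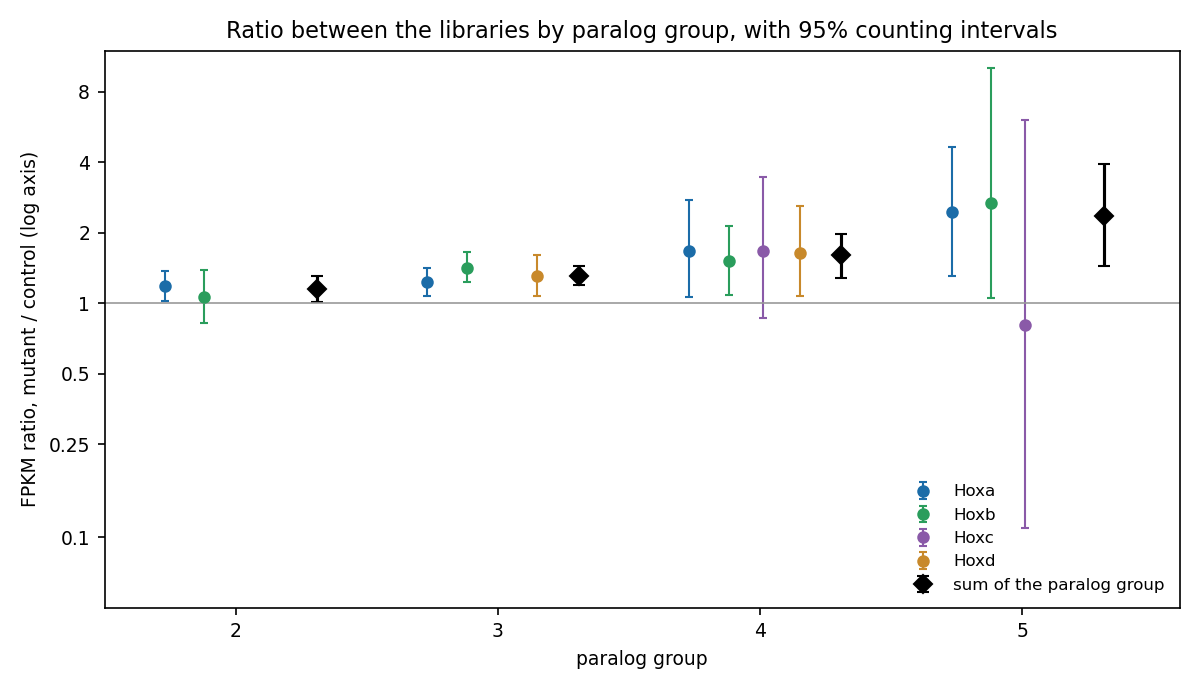
Ratio of mutant to control FPKM (log axis) for each gene of paralog groups 2 to 5 with at least 3 reads in either library, coloured by cluster, and for the sum of each group (black diamonds). Bars are 95% counting intervals, taken from the summed reads for the diamonds. The diamonds lie at 1.15, 1.30, 1.61 and 2.35 for groups 2 to 5, and the bars become longer as the reads become fewer.

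The gene models of Hoxa3 and Hoxd3 span their neighbours: in the deposited loci Hoxa3 overlaps Hoxa4, Hoxa5 and Hoxa6, and Hoxd3 overlaps Hoxd4. Of the 9 measured members, 5 overlap another symbol in this way. In the GENCODE M21 models on GRCm38 linked to the same RefSeq transcripts, 0 pairs of Hox genes shared exon bases. Some of these models differ in length from the deposited ones, such as the short Hoxb3 model with 1890 nt against 3313 nt deposited. Exon bases shared in the deposited models were not examined. The 4 measured members without an overlap, Hoxa2, Hoxb2, Hoxb3 and Hoxb4, were all higher in the mutant library.

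Genes just outside the clusters lay near the values of all measured genes. Of the 32 symbols nearest to the clusters, 4 on each side of each, 23 were measured. Of these 10 were higher and 13 lower in the mutant library, with a median log2 ratio of −0.02, where 51.2% of all measured genes were higher. None was past the fold of 25% in either direction, which 3.23% of all measured genes passed upwards and 2.2% downwards. The difference between these neighbours and the Hox genes was not tested. The largest size was that of Calcoco1, beside Hoxc, with 18.0 and 21.5 FPKM and a log2 ratio of 0.24. Atf7, also beside Hoxc, had 0.14, Atp5g1, beside Hoxb, −0.11 and Gm6793, beside Hoxd, −0.06. Evx1 and Evx2, homeobox genes at the 5′ ends of Hoxa and Hoxd, were at or under 1 read in both libraries.

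The clusters also hold microRNA genes, of which Mir10a lies beside Hoxb4 and Mir10b within the deposited locus of Hoxd4. Their mature RNAs are shown because they share a seed (bases 2 to 8, in capitals) while lying beside a pair of group 4 paralogs.
mmu-miR-10a-5p (GRCm38.p6 chr11:96317186-96317208, plus strand): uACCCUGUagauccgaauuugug
mmu-miR-10b-5p (GRCm38.p6 chr2:74726074-74726096, plus strand): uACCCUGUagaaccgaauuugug
Counted from the 5′ end, they differ by U12A, with the base of miR-10a first. The precursor rows of both were listed at 0 in both libraries, as were those of Mir196a-1, Mir196a-2, Mir196b and Mir615. Models this short yield few fragments, and mature microRNAs were not measured here. Of 10 non-coding genes of the clusters with a row, 8 were at 0 in both libraries and none reached 1 FPKM. Hoxa11as, the antisense gene of Hoxa11, was among those at 0, like Hoxa11 itself.

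Promoter sequences were at hand for 22 of the 39 members and for 6 of the 9 measured ones. The motif AGGTCA, the half-site of retinoic acid and other nuclear receptors, was found on either strand in 4 of these 6, namely Hoxa5, Hoxb4, Hoxd3 and Hoxd4, and not in Hoxa2 or Hoxa3. Of all 32851 promoter windows of the same length, 16.3% hold it. Over the 22 members it was in 7, which include Hoxc4 and Hoxd8, and also Hoxd10, which was at 0. Relative to the start of the gene, its first base stood at −145 in Hoxd4, −81 in Hoxb4 and 41 in Hoxa5, as shown above. TGATNNAT, a core of joint Pbx and Hox sites, was in the Hoxa2 window at −111 and in 8.85% of all windows. The motifs were chosen after the values were seen, and 7 were searched on both strands. The other five were TGACAG (in Hoxa2 and Hoxa3, and in 19.2% of all windows), TATAAA (in Hoxd4, 13.6%), CCAAT (in Hoxa2, Hoxa5, Hoxd3 and Hoxd4, 37.4%), TTTATNG (in Hoxd4, 10.9%) and TGATTGAT, a form of TGATNNAT (in Hoxa2, 0.746%). A match describes the letters of a window and does not show binding.

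The TALE cofactors were abundant and close between the libraries. Of 8 measured members 5 were higher and 3 lower in the mutant library, with a median log2 ratio of 0.07, and none was past that fold. Pbx3 had 12.1 FPKM in the control library against 14.0 FPKM in the mutant, giving a ratio of 1.16 (1.04 to 1.30). Meis1 had 21.4 and 23.8 FPKM, and Meis2 had 39.7 and 44.1 FPKM, both with a ratio of 1.11.

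Genes that regulate Hox transcription were split, with 5 of 9 measured members higher and 4 lower, a median log2 ratio of 0.07, 2 past the fold upwards and 2 downwards. Over all measured genes those shares were 3.23% and 2.2%. Rarb, a retinoic acid receptor that is itself a target of retinoic acid, had 7.34 FPKM in the control library against 13.0 FPKM in the mutant, giving a ratio of 1.77 (1.57 to 2.01). Aldh1a2, the enzyme that makes retinoic acid in embryos, had 20.9 against 30.3 FPKM, or a ratio of 1.45 (1.34 to 1.58). The 3 Cyp26 enzymes, which break retinoic acid down and are named after their values were seen, were lower in the mutant library. Cyp26b1 had 12.1 against 10.5 FPKM, or a ratio of 0.872 (0.802 to 0.948). Further, Cyp26a1 had 2.17 and 1.16 FPKM and Cyp26c1 had 1.75 and 0.354 FPKM, ratios of 0.534 (0.365 to 0.783) and 0.202 (0.102 to 0.380). Whether these differences have a part in those of the Hox genes was not tested. The caudal genes Cdx1, Cdx2 and Cdx4, activators of the middle of the clusters, were listed at 0 in both libraries.

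Chromatin regulators of the clusters were near balance in direction. Polycomb genes, which keep Hox genes silent, had 10 higher and 9 lower of 19, with a median log2 ratio of 0.0002. Phf1, Ring1 and Suz12 had ratios of 1.21, 1.14 and 0.916. Trithorax and MLL genes, which keep Hox genes active, had 5 higher and 9 lower of 14, with a median of −0.02. In both lists no gene was past the fold.

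Genes named in the field as Hox targets were split as well, with 7 higher and 10 lower of 17 and a median log2 ratio of −0.05. Past the fold were 3 upwards and 2 downwards, against 3.23% and 2.2% of all measured genes. The counting interval lay above 1 for 7, against 10.7% of all measured genes, which were not matched to the list by level. It lay below 1 for 6, for which no share over all genes was computed. Below 5 FPKM in both libraries, Runx2 had a ratio of 2.13 (1.87 to 2.57) and Itga8 one of 0.691 (0.607 to 0.787). Foxd1, a forkhead gene of facial mesenchyme, had 53.5 against 39.9 FPKM, or a ratio of 0.747. For Six2, which Hoxa2 is known to repress in the second arch, the levels were 16.9 and 22.3 FPKM, a ratio of 1.32 (1.20 to 1.46). Meox1, a gene of the somite, had 10.9 against 13.9 FPKM, or a ratio of 1.28 (1.14 to 1.44).

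**Figure D4:**
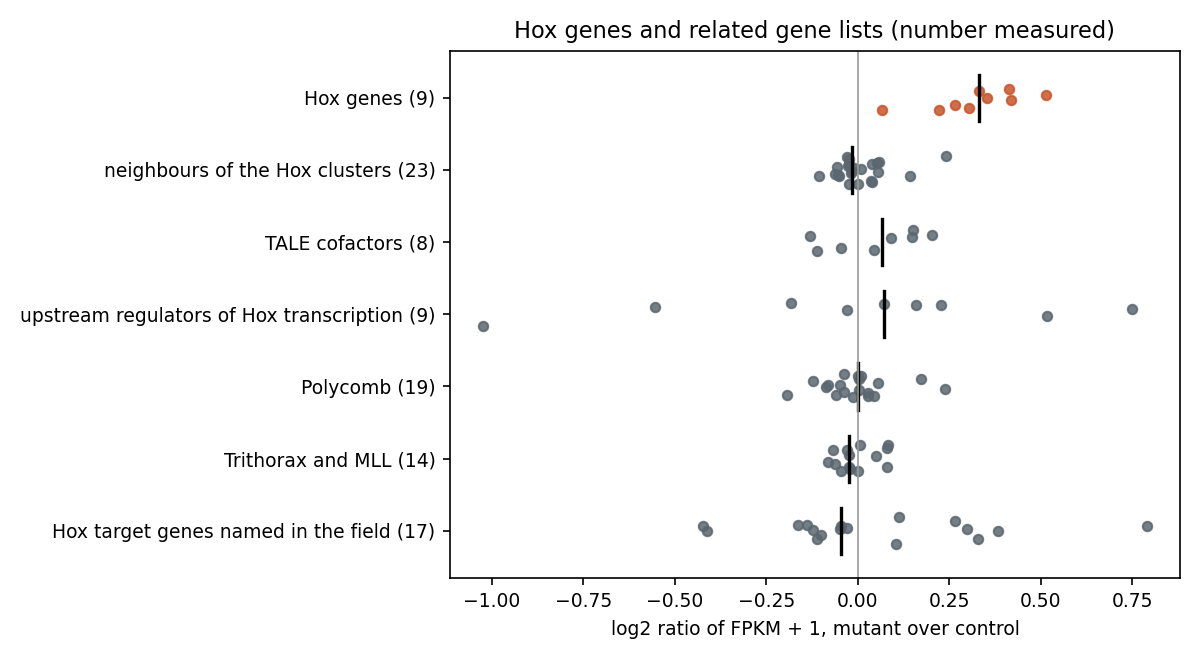
Log2 ratio of FPKM plus 1, mutant over control, for the measured Hox genes, the cluster neighbours and 5 lists of cofactors, regulators and targets, without the cell type markers (1 point per gene, number in brackets), with the median as a black bar. The 9 Hox genes (orange) all lie above 0 with a median of 0.33, and the medians of the other rows lie between −0.05 and 0.07.

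Markers of other cells that the tissue could hold are given beside these results, and their part in them was not tested. Neural crest mesenchyme, measured by Prrx1, Twist1, Hand2 and Msx1, summed to 169 FPKM (control) and 175 FPKM (mutant), and skeletal muscle precursors to 145 and 144. Beside the counts of direction that follow, 51.2% of all measured genes were higher in the mutant library. Markers of neurons summed to 20.7 and 13.4 FPKM, with 4 of 6 lower in the mutant library. Epithelial markers were lower in 6 of 6 and those of the Schwann lineage in 4 of 4, with sums of 82.0 and 70.2 FPKM and of 46.2 and 39.1 FPKM. Red cell markers summed to 1310 and 1068 FPKM, endothelial ones to 51.0 and 55.2 and macrophage ones to 9.53 and 9.80. Markers of the second arch and pharynx summed to 56.6 and 51.2 FPKM, with 2 of 5 higher. The most abundant of them, Tbx1, a gene of pharyngeal endoderm and mesoderm, had 30.5 and 26.4 FPKM, a ratio of 0.868 (0.796 to 0.946). Nkx2-5 was also lower, with 14.0 and 10.5 FPKM and a ratio of 0.746 (0.648 to 0.863). Nkx2-1, a gene of thyroid and lung, stayed below 1 FPKM with 0.295 and 0.853 FPKM. Pax8, of thyroid, was at 0 in the control and had 0.129 FPKM in the mutant library, while Gcm2, of the parathyroid, was at 0 in both. Limb and trunk markers summed to 75.8 and 78.1 FPKM, with 3 of 6 higher. The most abundant, Pitx1, a gene of hindlimb and mandibular arch, had 43.9 and 42.5 FPKM, and Tbx5, a gene of forelimb, heart and lung, had 0.493 and 1.43 FPKM. Xist was higher in the mutant library (61.1 and 86.1 FPKM) and 4 of 4 Y-linked genes were lower. The ratios were 0.758 (0.692 to 0.831) for Ddx3y and 0.735 (0.641 to 0.842) for Kdm5d. For Eif2s3y, 0.871 (0.750 to 1.01), and Uty, 0.899 (0.761 to 1.06), the interval includes 1.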

How the data were processed

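RNA-seq was done on 1 control and 1 mutant library of pooled embryonic tongue. Alignment used TopHat 1.4.1 and Bowtie 0.12.7 with build mm9, per the submitters' processing notes. The deposited values, per the file headers, are FPKM per RefSeq transcript, and coverage, a read signal without depth scaling. The files hold no read counts. Loci count the start from 0 (in 3284 rows the end minus the start equals the length), so 1 was added to each start here. Reads of a gene were estimated as coverage times length over 47.2 bases per read, the step seen in single-row genes of at least 1000 nt. They gave exact conditional (Clopper-Pearson) 95% intervals, which hold counting error alone: the cDNA was amplified, so reads are not independent molecules. The interval formula was tested on simulated independent reads, which does not test the estimate of reads from coverage or the effect of amplification. Values were summed per symbol, and a gene counted as measured if 1 library or both had at least 1 FPKM and all its rows were OK. Log2 ratios use a pseudocount of 1 FPKM and understate differences of low genes. Promoters and microRNAs are from RefSeq (GRCm38.p6). Python 3.11.15, pandas 2.3.3 and scipy 1.17.1 were used.

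All Hox genes of at least 1 FPKM were named, and up to 3 of each other list by size of log2 ratio at 5 FPKM, or 4 cluster neighbours. Marker lists, the promoters shown and genes said to be low are exceptions. The members and lists were chosen with earlier results of these data known. List members without a row here were not analysed, and some genes that the rule names are left out of the text. The alternatives tried are in the closing section.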

Additional observations from a re-analysis of the deposited data

How the results depend on the processing

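The Hox counts, sums and gene ratios were recomputed under 12 alternatives, of which the one without overlapping models gives no value for Hoxa3, Hoxa4, Hoxa5, Hoxd3 and Hoxd4. The Hoxb3 models were not recomputed. The minimum levels and the status rule cannot change a gene's own ratio or a sum. Leaving out overlapping models cannot change a gene's own ratio, nor can the choice of row where a gene has 1 row. Agreement there was fixed in advance. All 103 values of the 9 measured Hox genes under the 12 alternatives stayed above 0 on the log2 scale of FPKM plus 1. Of these, 102 stayed inside the counting interval of the reported value, which is that of the plain ratio. The exception was Hoxb3 taken from its more abundant model alone, with 1.17 in place of 0.42. With that choice the ratio of the Hoxb cluster was 1.64 and that of paralog group 3 was 1.49. With a minimum of 2 FPKM, 5 members were measured, all 5 higher and 1 of them at least 25% higher on FPKM plus 1. Without any minimum, 15 were higher and 7 lower, with a median of 0.0591. A mean of at least 1 FPKM left 3 members past that fold. On the TPM scale, where 1 unit is 0.306 FPKM in the control library, 11 members reached 1 in that library and 8 were past the fold. Among members without an overlapping model, 4 reached 1 FPKM in the mutant library, 4 were higher and 2 were past the fold. The Hoxd ratio then was 0.950, because Hoxd3 and Hoxd4 were left out. Chosen after seeing the data, the sums of groups 2 and 3 and of groups 4 and 5 were recomputed too, with ratios from 1.22 to 1.31 and from 1.65 to 1.73. The medians of the cluster neighbours and the 5 related lists ran from −0.05 to 0.12 under 11 alternatives. Of 110 medians of marker lists, 108 stayed within the median counting bounds of their genes. The exceptions, without any minimum, were neurons with −0.30 and the second arch and pharynx with 0.18, a list whose median ran from −0.04 to 0.18 over the alternatives. No paired analysis was possible because each genotype has 1 library. Nor could a replicate be left out, so the spread between embryos is unknown, and groups 6 to 13 are limited by depth.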
